A study of Saccharomyces cerevisiae with 5 samples.

Results

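The 7 a-specific genes of Saccharomyces cerevisiae, MFA1 (YDR461W), MFA2 (YNL145W), STE6 (YKL209C), STE2 (YFL026W), BAR1 (YIL015W), AGA2 (YGL032C) and ASG7 (YJL170C), were followed through 3 strain comparisons. They were taken by their systematic reading-frame names from the 6388 gene probes of an oligonucleotide array that carries each gene in 3 repeat spots. All cultures were harvested after 45 min in 0.5 mol/L NaCl. The groups were W303, a common laboratory strain; bdf1Δ, which lacks the bromodomain protein gene BDF1; bdf1Δ+HAL2, which per the series title overexpresses the salt-sensitive phosphatase gene HAL2; and bdf1Δhda1Δ, which also lacks the histone deacetylase gene HDA1. All strains other than W303 thus carried the BDF1 deletion, and all groups had the same salt treatment. On 1 array bdf1Δ (Cy5) was hybridised with W303 (Cy3). Each of bdf1Δ+HAL2 and bdf1Δhda1Δ was hybridised with bdf1Δ on 2 arrays, with the test strain in Cy5 on array 1 and in Cy3 on array 2. The 2 arrays of a pair hold the same samples per the labels, so each comparison has 1 replicate, and no p-value can be given. The labels give neither the mating type nor the number of clones of any strain, nor how HAL2 was carried.

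In budding yeast, cells of mating type a transcribe the a-specific genes through the general factor Mcm1, whereas in cells of mating type α the repressor α2 binds beside Mcm1 and recruits the corepressors Tup1 and Cyc8. The products of these genes let an a cell find and join an α cell. MFA1 and MFA2 encode precursors of the a-factor pheromone, and STE6 encodes the transporter that exports it. STE2 encodes the receptor for α-factor and BAR1 a secreted protease that degrades α-factor. AGA2 encodes the adhesion subunit of a-agglutinin, and ASG7 a protein that dampens pheromone signalling.

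Ratios are log2 of test over reference strain after global loess normalization. Thus 1 unit is a 2-fold change relative to the middle of the genes of similar intensity on that array. A spot was above background when its net intensity (spot minus local background) exceeded 2 background SDs. To count as measured, a gene needed 2 or more of its 3 spots found by the image software with at least 1 channel above background, on each array of the comparison. It was called higher or lower when every array of the comparison put it past 2-fold on the same side, which is the submitters' rule. Errors are the SD of the 2 arrays of a pair, or of the 3 spots on the single array (2 where so stated), and cover technical variation only.

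The array of bdf1Δ versus W303 stood apart from the other 4. Its bdf1Δ channel was above background in 36.9% of the gene spots and its W303 channel in 91.2%. Its median ratio before normalization was −1.84, against −0.09 to 0.18 on the other arrays. The share of variance that lay between the 48 printing blocks was 35.8% there and 3.18% to 10.7% elsewhere. BDF1 was above background in W303, at a median of 510, and in 0 of the 9 channels with a BDF1 deletion. It stood at 10 in bdf1Δ on the W303 array, so its ratio, past 2-fold lower by print-tip loess only, is no measured fold. HAL2, listed as MET22, stood at 3.73 ± 0.15 in bdf1Δ+HAL2. HDA1 was not measured in bdf1Δhda1Δ, where 0 spots of the double mutant were above background on either array.

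The labels give no mating type, so the genes that mark each type were looked at first. MFA2, STE2 and STE6 were above background (in at least 2 of 3 spots) in all 10 channels, AGA2 in 9, MFA1 in 8, BAR1 in 7 and ASG7 in 3. Of the α-specific genes, the α-factor gene MF(ALPHA)1 was above background in 0 of 10 channels, with channel medians no higher than 29 intensity units. The a-factor receptor gene STE3 was above background in 1 channel, that of W303, where 91.2% of all gene spots were. MF(ALPHA)2 was so in 3 channels and SAG1, the α-agglutinin gene, in 7. On no array did ASG7, MF(ALPHA)1, STE3 or MF(ALPHA)2 have 2 or more spots found by the image software. Summed over the 7 a-specific genes, the median net intensity ran from 2193 in bdf1Δ on the W303 array to 17111.5 in bdf1Δ on array 2 of the bdf1Δ+HAL2 pair. The sum over the 4 α-specific genes ran from −316 to 961.5. W303 lay within both ranges, at 3623.5 and 818. Probes named for the repressor gene α2, MATALPHA2 and HMLALPHA2, were above background in 9 channels each, and those for HMRA2 and HMRA1 in 8 and 7. Cells of either mating type carry silent copies of these genes, and which copy gave the signal cannot be told.

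**Figure D1:**
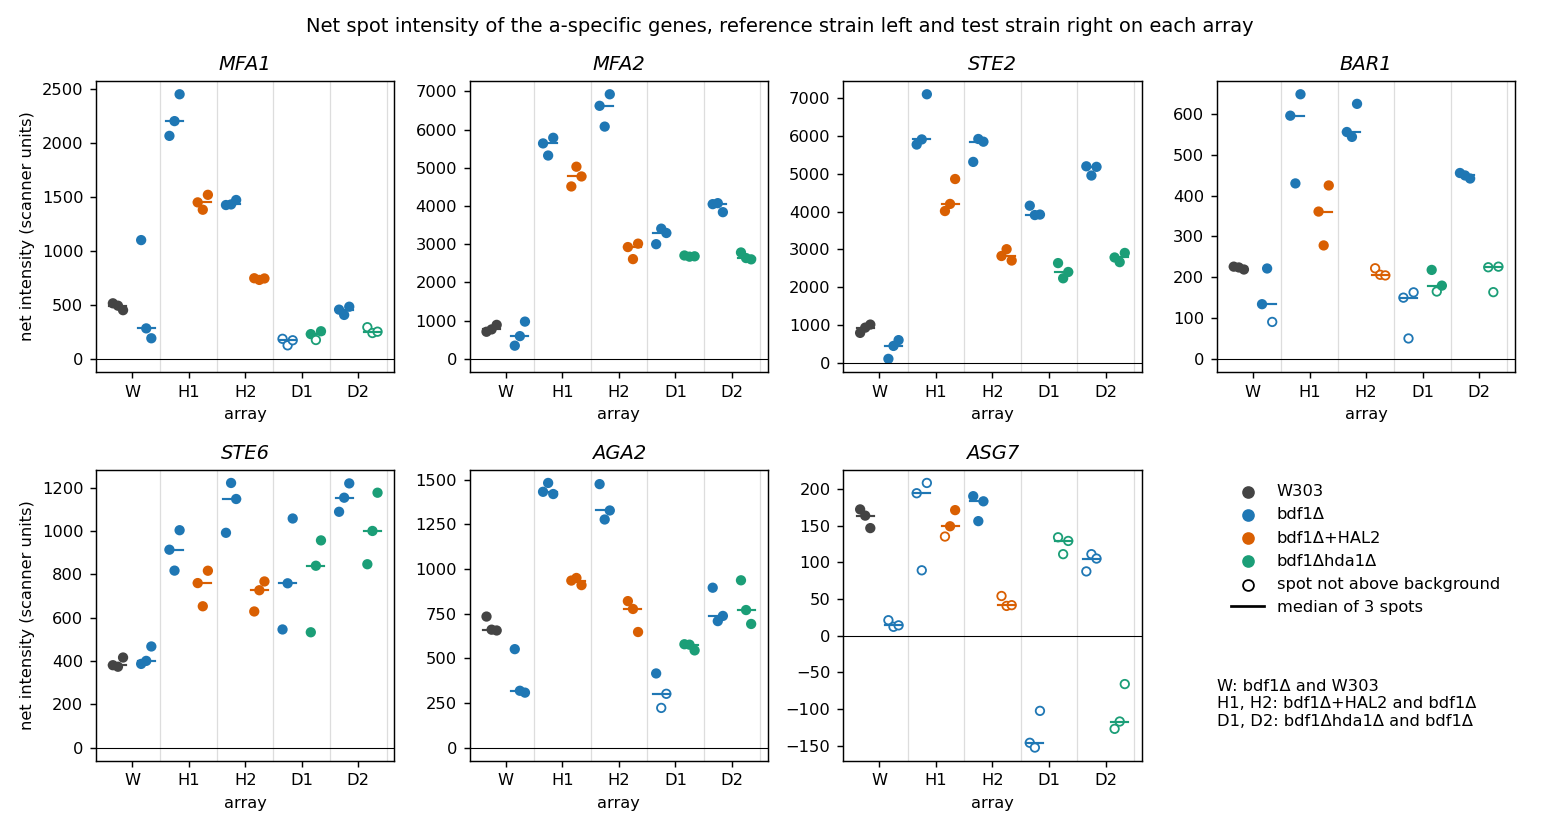
Net intensity (spot minus local background, linear scanner units) of each of the 3 spots per gene on each array, reference strain on the left and test strain on the right of each column; filled points are above background and lines are medians of 3 spots. On arrays H1 and H2 every bdf1Δ spot of MFA1, MFA2, STE2, BAR1, STE6 and AGA2 lies above every bdf1Δ+HAL2 spot, and MFA2 and STE2 are dimmer on array W than on the other arrays.

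In bdf1Δ against W303, the a-specific genes lay higher relative to other genes of the same array, but only STE6 was brighter in all 3 spots. Of the 6 measured genes, 4 were called higher and 0 lower (66.7% of the measured members, against 15.9% of 3688 genes called higher and 18.4% called lower). All 6 ratios were above 0, as were 49.9% of all genes. The median of the 6 was 1.26, against −0.002 for all genes. Among the 2117 genes above background in both channels, 559 were called higher, 4 of them members, and the median gene stood at 0.42. In bulk RNA, fewer cells that express a gene and less RNA per cell cannot be told apart.

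MFA1 varied most among its spots. It gave net intensities of 1099, 282 and 190.5 in bdf1Δ and of 514, 492 and 450.5 in W303. The spot ratios were 2.42, 1.08 and 0.81, with a mean of 1.43 ± 0.86, so 1 bright bdf1Δ spot carried much of the value. Without that spot the mean of MFA1 was 0.94, short of 2-fold. MFA2 gave 345, 595 and 975 in bdf1Δ and 709.5, 771 and 890 in W303, and its ratio was 1.08 ± 0.32. Without its highest spot it stood at 0.94, also short of 2-fold. In both genes W303 was the brighter strain in 2 of 3 spots, and the gene was called because the median gene was dimmer still in bdf1Δ.

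STE6 had the most even spots. It gave 386, 400 and 466.5 in bdf1Δ and 380, 373 and 415.5 in W303, and its ratio of 1.83 ± 0.04 was rank 85 from the highest of 3688 genes. All 3 of its spots were brighter in bdf1Δ, by a small margin. BAR1 gave 134, 221.5 and 90.5 in bdf1Δ, the last not above background, and 226, 224 and 219 in W303. Its ratio was 1.65 ± 0.33, rank 158 from the highest. Both genes stayed past 2-fold without their highest spot, at 1.81 for STE6 and 1.47 for BAR1.

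The receptor and the adhesin were not called. STE2 gave 108, 450 and 603 in bdf1Δ and 794, 933 and 1014 in W303, and its ratio was 0.24 ± 0.66, within the spread of its spots. AGA2 gave 551, 318 and 307.5 in bdf1Δ and 733.5, 660 and 655.5 in W303, with a ratio of 0.89 ± 0.24. ASG7 was above background in W303, at 172, 163.5 and 146.5, and in 0 spots of bdf1Δ, at 21, 12 and 14. Its spots had not been found by the image software, so no ratio is given for it.

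Position on the slide moved with these values. STE6 lay in block 2, whose median ratio of 1.22 was the third highest of 48 blocks, and BAR1 in block 27, at 0.68 the sixth highest. The blocks of AGA2, MFA1, STE2 and MFA2 had medians of 0.40, 0.35, 0.005 and −0.20. With loess fitted within each block (print-tip loess), STE6 went from 1.83 to 0.53 ± 0.03 and BAR1 from 1.65 to 0.76 ± 0.39, and neither was called. MFA1 stood at 1.22 ± 1.22 and was still called, though 0.51 without its highest spot. MFA2 went from 1.08 to 2.59 ± 0.50, rank 7 from the highest, and remained past 2-fold without its highest spot, at 2.36. The global-loess ratio of MFA2 less the median of its block was only 1.28. The size of its print-tip value thus depends on the fit within that block. STE2 and AGA2 stood at 0.67 ± 0.79 and 0.45 ± 0.23. By print-tip loess the called members were thus MFA1 and MFA2 (33.3% of those measured, against 5.94% of all genes called higher and 6.18% lower), with a member median of 0.72 and all 6 above 0, against 49.5% of all genes.

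The direction itself rested on centring. With no normalization the member median was −0.42 while that of all genes was −1.82, and 15 genes were called higher and 2759 lower. In the authors' deposited ratio, which is not centred on this array, the member median was −0.58 and that of all genes −2.37. Each of the 6 genes lay above the median gene under global loess, print-tip loess and no normalization. After centring of the authors' deposited ratio STE2 lay below it, at −0.51, and the other 5 above. The median gene stood at 0.42 among genes above background in both channels and at 0.55 with every gene spot, so STE2, at 0.24, lay below it there too, and the other 5 above.

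**Figure D2:**
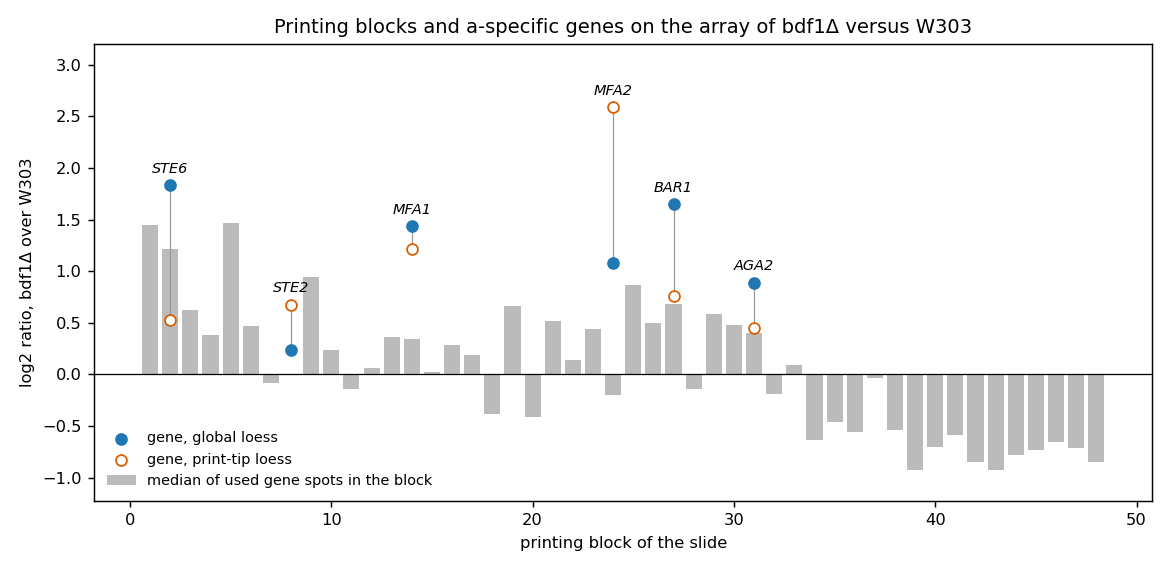
Log2 ratio of bdf1Δ over W303 against printing block: bars are the median of the used gene spots in each of the 48 blocks, filled points the measured a-specific genes by global loess and open points the same genes by print-tip loess. Blocks from 34 on have medians below 0, the 6 genes lie in blocks 2 to 31, and STE6 and BAR1 lose their call by print-tip loess whereas MFA2 gains.

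In bdf1Δ+HAL2 against bdf1Δ, the a-specific genes lay lower together, each by less than 2-fold. Of the 6 measured genes 0 were called (0.445% of 4266 genes were called higher and 1.03% lower), but all 6 were below 0 on both arrays, as were 34.1% of all genes. Their means ran from −0.92 to −0.50 with a median of −0.75, against 0.004 for all genes, and single arrays ran from −0.95 to −0.43. All 6 lay among the lowest 280 genes by rank. On each array every bdf1Δ+HAL2 spot of these 6 genes was also dimmer than every bdf1Δ spot of the same gene.

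By global loess the receptor and the α-factor protease gave the most even ratios. STE2 had median net intensities of 4201 in bdf1Δ+HAL2 and 5905 in bdf1Δ on array 1, and of 2825 and 5845 on array 2. Its ratios were −0.77 and −0.76, with a mean of −0.77 ± 0.01, or 1.70-fold lower. BAR1 had 361 and 596 on array 1, and 206 and 556 on array 2, where 0 of the 3 bdf1Δ+HAL2 spots were above background. Its ratios were −0.88 and −0.95, with a mean of −0.92 ± 0.05, or 1.89-fold lower, rank 71 from the lowest. Since BAR1 was above background in bdf1Δ+HAL2 on array 1 only, the size of its change is uncertain.

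Among the a-factor genes, MFA1 had 1448 in bdf1Δ+HAL2 and 2200 in bdf1Δ on array 1, and 744 and 1429 on array 2. Its ratios were −0.84 and −0.69, with a mean of −0.76 ± 0.11. MFA2 had 4775 and 5640 on array 1 and 2926.5 and 6624 on array 2. The ratios of MFA2 differed most between the arrays, at −0.49 with bdf1Δ+HAL2 in Cy5 and −0.94 with it in Cy3 (mean −0.72 ± 0.32). Both a-factor genes were lower in bdf1Δ+HAL2 on each array, and their mean ratios differed by less than the SD of MFA2.

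The exporter STE6 had the smallest difference. It had 759 in bdf1Δ+HAL2 and 913 in bdf1Δ on array 1, and 726 and 1147 on array 2, giving −0.58 and −0.43 (mean −0.50 ± 0.11, or 1.42-fold lower). AGA2 had 935 and 1432 on array 1 and 776 and 1327.5 on array 2, giving −0.87 and −0.60 (mean −0.74 ± 0.19). For ASG7 the spots had not been found on either array. Its medians were 149 in bdf1Δ+HAL2 and 194 in bdf1Δ on array 1, and 41.5 and 183 on array 2, where all 3 bdf1Δ spots and 0 bdf1Δ+HAL2 spots were above background.

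By print-tip loess the member median was −0.79, all 6 were again below 0 on both arrays, and 0 were called (0.492% of all genes were called higher and 1.1% lower). STE2 was the member nearest to 2-fold there, at −0.95, and STE6 the farthest, at −0.45.

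**Figure D3:**
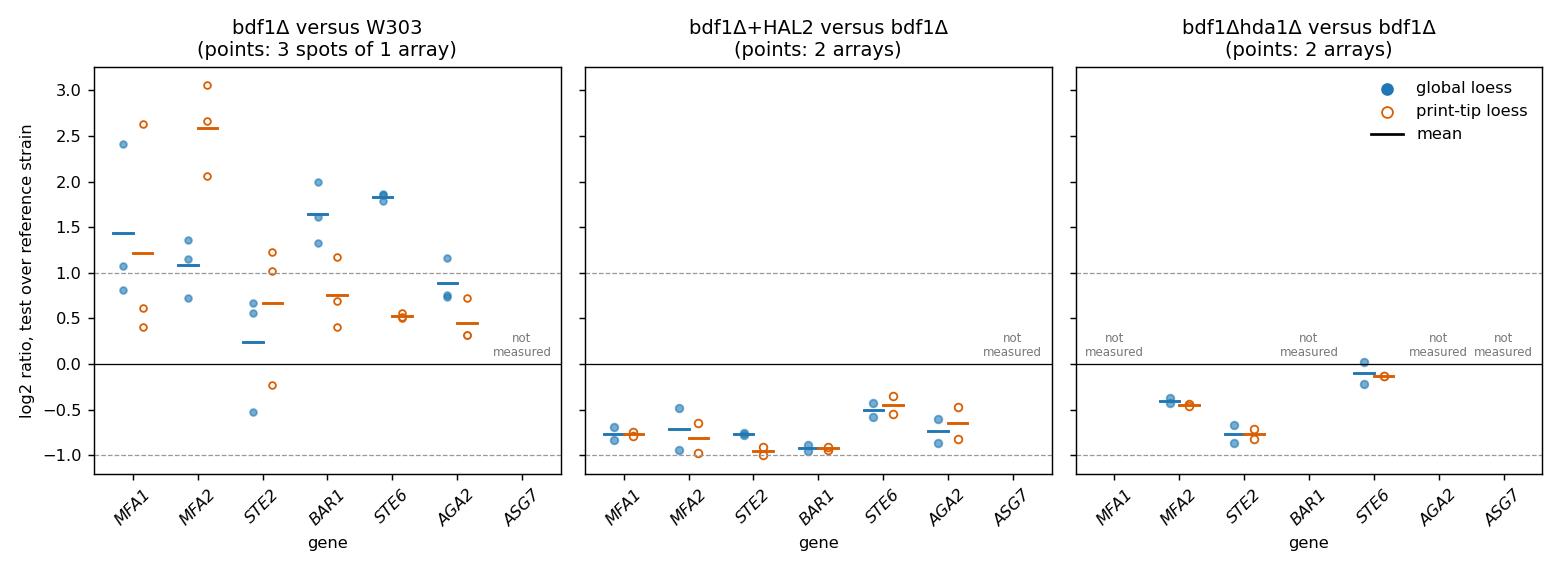
Log2 ratio of each a-specific gene in the 3 comparisons by global loess (filled) and print-tip loess (open), with points for the 3 spots of the single array or for the 2 arrays of a pair, and short lines for means; dashed lines mark 2-fold. The spots of bdf1Δ versus W303 spread widely, all 6 genes measured in bdf1Δ+HAL2 lie between −1 and 0, and 3 genes were measured in bdf1Δhda1Δ.

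In bdf1Δhda1Δ against bdf1Δ, only STE2, MFA2 and STE6 could be measured, and 0 were called (1.06% of 2074 genes were called higher and 0.627% lower). STE2 was lower, at −0.86 and −0.66 on the 2 arrays (mean −0.76 ± 0.14, or 1.70-fold), rank 31 from the lowest. Its median net intensities were 2403 in bdf1Δhda1Δ and 3920 in bdf1Δ on array 1, and 2786.5 and 5180.5 on array 2. On each array the highest bdf1Δhda1Δ spot of STE2 lay below the lowest bdf1Δ spot.

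MFA2 lay lower by a smaller amount. It had 2684.5 in bdf1Δhda1Δ and 3294.5 in bdf1Δ on array 1 and 2638.5 and 4050 on array 2, giving −0.43 and −0.38 (mean −0.40 ± 0.03). STE6 had 839 and 758 on array 1 and 999.5 and 1153 on array 2, giving −0.22 and 0.02 (mean −0.10 ± 0.17), a difference within the spread of the arrays. The authors' deposited ratio put STE6 lower, at −0.36. STE2 and MFA2 were thus below 0 on both arrays, as were 36.5% of all genes, and STE6 was not, though it stood at −0.13 on both arrays by print-tip loess. The median of the 3 genes was −0.40, against 0.007 for all genes.

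The other 4 genes lacked found spots on at least 1 array of this pair, and only their intensities are given. MFA1 had 229 in bdf1Δhda1Δ and 172 in bdf1Δ on array 1, and 251.5 and 455.5 on array 2. BAR1 had 179.5 and 150 on array 1, and 224.5 and 449.5 on array 2. For both genes the strain in Cy5 was the brighter one on each array, and the strain in Cy3 had 0 spots above background, so no direction can be read. AGA2 had 576 and 301 on array 1 and 770 and 737 on array 2, with bdf1Δhda1Δ the brighter by median on both. The spots overlapped on array 2, and on array 1 only 1 of 3 bdf1Δ spots, in Cy3, was above background. No direction is read for AGA2 either. ASG7 was above background in 0 spots of either strain on either array.

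**Figure D4:**
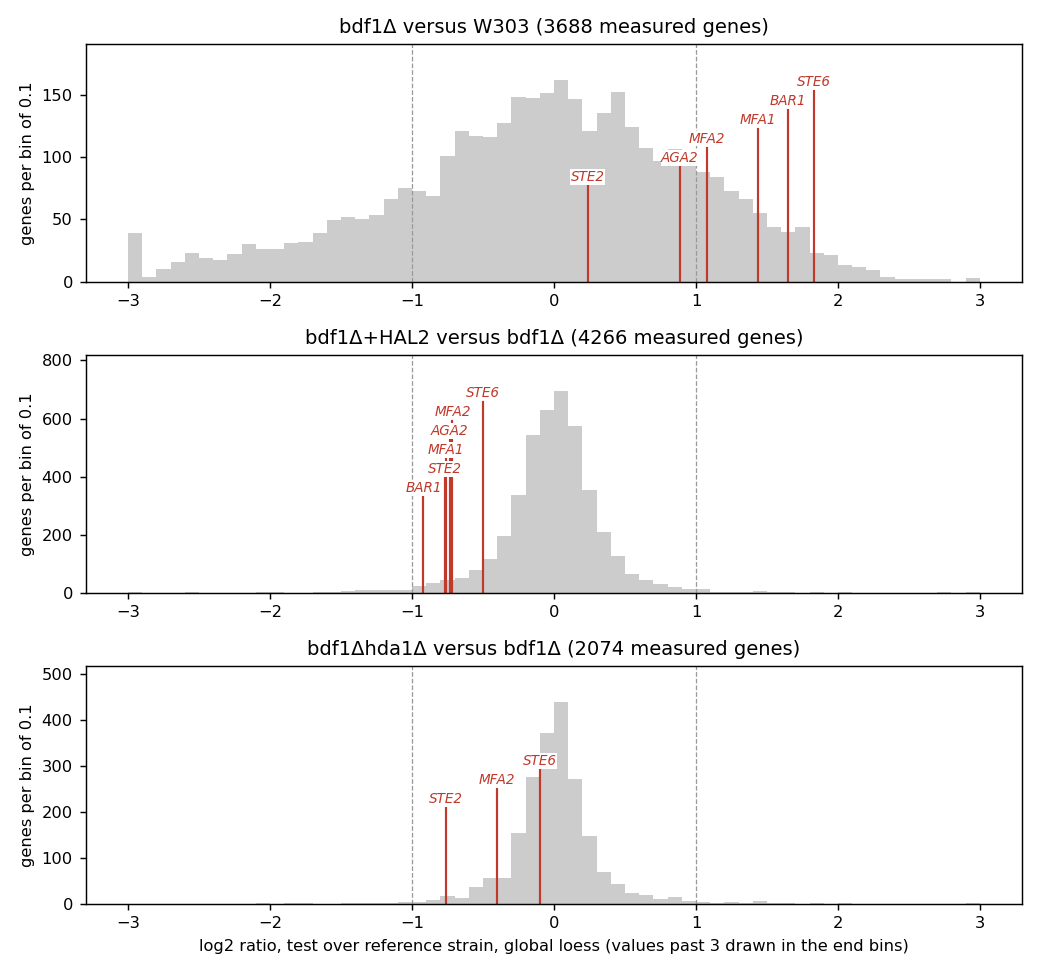
Number of measured genes per bin of 0.1 in log2 ratio (global loess) in each comparison, with the measured a-specific genes marked by red lines; line height carries no value and dashed lines mark 2-fold. In bdf1Δ+HAL2 the 6 genes stand together on the left shoulder, in bdf1Δ versus W303 they spread from 0.24 to 1.83 over a much wider distribution.

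Set side by side, STE2 stood at 0.24 in bdf1Δ versus W303, −0.77 in bdf1Δ+HAL2 versus bdf1Δ and −0.76 in bdf1Δhda1Δ versus bdf1Δ. MFA2 stood at 1.08, −0.72 and −0.40, and STE6 at 1.83, −0.50 and −0.10. The strain bdf1Δ is the test strain of the first comparison and the reference of the others, so these values are not independent of each other. The difference between the 2 modified strains was not tested. Among the 1929 genes measured in all 3 comparisons, the 5 nearest to the median profile of MFA2, STE2 and STE6 over the 5 arrays, by Euclidean distance of log2 ratios, were FMP46 (0.29), ROX3 (0.30), TDA1 (0.34), MSC1 (0.38) and the reading frame listed as YGR161WB (0.42). ROX3 encodes a subunit of the Mediator complex and TDA1 a protein kinase. MFA2 itself lay at 0.21 from that profile, STE6 at 0.93 and STE2 at 1.01. The profile equals MFA2 itself in bdf1Δ versus W303 and on each bdf1Δhda1Δ array, so these 5 genes are mainly neighbours of MFA2. They were picked as the nearest, so their small distances are no result. By distance from the profile STE6 was rank 109 and STE2 rank 148 of the 1929 genes.

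Over the other mating lists, 27 genes were measured in bdf1Δ+HAL2, of which 1 was called higher and 1 lower (3.70% each, against 0.445% and 1.03% of all genes). Of Mcm1 and its corepressors all 3 were measured and 0 called, with MCM1 at 0.27 ± 0.13 and CYC8 at 0.47 ± 0.06. The probes of the mating-type locus and the silent cassettes gave 4 measured genes and 0 called, from −0.13 to −0.12, with MATALPHA2 at −0.13 ± 0.10 and HMLALPHA2 at −0.13 ± 0.43. For a-factor maturation, 4 of 7 genes were measured and 0 called. RAM1, a subunit of the farnesyltransferase that modifies a-factor, stood at 0.53 ± 0.02, and STE24, a protease that trims the precursor, at 0.35 ± 0.18. Among silencing genes SIR3 alone was measured, at −0.25 ± 0.17.

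The pheromone pathway, which a-factor and α-factor feed, held 11 measured genes of 14 in bdf1Δ+HAL2, 0 of them called, with a median of −0.17. GPA1, the G protein α subunit, stood at −0.38 ± 0.28 and FAR1, the arrest factor, at −0.33 ± 0.18. PRM1, which acts in cell fusion and is induced by pheromone, was the 1 measured gene of 11 in its list and was called higher, at 1.89 ± 0.03, though 0 of its 3 bdf1Δ spots were above background on array 1. KEX1, a protease of α-factor maturation, was the 1 measured gene of 3 in its list and was called lower, at −3.65 ± 0.31, with 0 of 3 bdf1Δ+HAL2 spots above background on array 2. The sizes of both changes are therefore uncertain. SAG1, the 1 measured α-specific gene of 4, stood at 0.04 ± 0.18. Among haploid-specific genes 4 of 5 were measured and 0 called, and RME1, a repressor of meiosis named after its value was seen, stood at −0.94 ± 0.12, a lower mean than that of any a-specific gene. By mean ratio 10 of the 11 pathway genes, all 4 haploid-specific genes and all 4 mating-type locus probes were below 0. The median gene stood at 0.004. These lists share some genes. Above 0 by mean ratio were all 3 of Mcm1 and its corepressors and 3 of the 4 a-factor maturation genes. The mean is a looser rule than that of both arrays used for the members. STE5, KSS1, MSG5 and HMLALPHA2 were above 0 on array 1, at 0.10, 0.03, 0.07 and 0.17.

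In bdf1Δhda1Δ 9 genes of these lists were measured, among them all 3 of Mcm1 and its corepressors, and 0 were called. CYC8 stood at 0.25 ± 0.11 and MCM1 at −0.02 ± 0.03. STE4, the G protein β subunit, and FUS3, a kinase of the pathway, stood at 0.25 ± 0.07 and 0.23 ± 0.07. KEX1 stood at 0.10 ± 0.31, STE24 at −0.14 ± 0.07, HMLALPHA2 at −0.11 ± 0.13 and RME1 at −0.04 ± 0.07.

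In bdf1Δ versus W303, 22 genes of these lists were measured, of which 3 were called higher and 0 lower (13.6% higher, against 15.9% of all genes). This share is near that of all genes. RAM1 stood at 1.46 ± 0.13, but the other 3 of the 4 measured a-factor maturation genes were below 0. These were STE24, STE14 and STE23, each with at most 1 of 3 bdf1Δ spots above background. The median of the 4 was −0.55. STE13, a peptidase of α-factor maturation, stood at 1.31 ± 0.01 over 2 spots. STE5, the scaffold of the pheromone kinases, stood at 1.32 ± 0.37 over 2 spots, with 1 of its 3 bdf1Δ spots above background. By print-tip loess 2 genes were called higher, STE5 at 1.28 and STE50, an adaptor of the pheromone kinases, at 1.41, while RAM1 and STE13 stood at 0.68 and 0.12. STE50, named after its values were seen, had stood at 0.76 by global loess. MCM1 stood at 0.69 ± 0.18 and SAG1 at 0.93 ± 0.04, the latter above the ratios of STE2 and AGA2 by global loess. By print-tip loess MCM1 stood at 0.49 and SAG1 at 0.62, between AGA2 at 0.45 and STE2 at 0.67. KAR5, a gene of nuclear fusion, stood at 0.44 ± 0.14 over 2 spots, with 1 of its 3 bdf1Δ spots above background. TUP1, MATALPHA1, RME1 and PRM1 had 0 of 3 bdf1Δ spots above background, so no ratio is given for them. PRM1 was past 2-fold lower by print-tip loess only. Of the haploid-specific genes 2 of 5 were measured and 0 called, with STE4 at −0.54 ± 0.25. Of the mating-type locus and cassette probes 4 of 6 were measured and 0 called. All 4 lay above 0, as did 49.9% of all genes. Each had at most 1 of 3 bdf1Δ spots above background, so no direction is read from them. HMRA2 stood at 0.58 ± 0.33, with 1 of its 3 bdf1Δ spots above background. No silencing gene was measured.

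**Figure D5:**
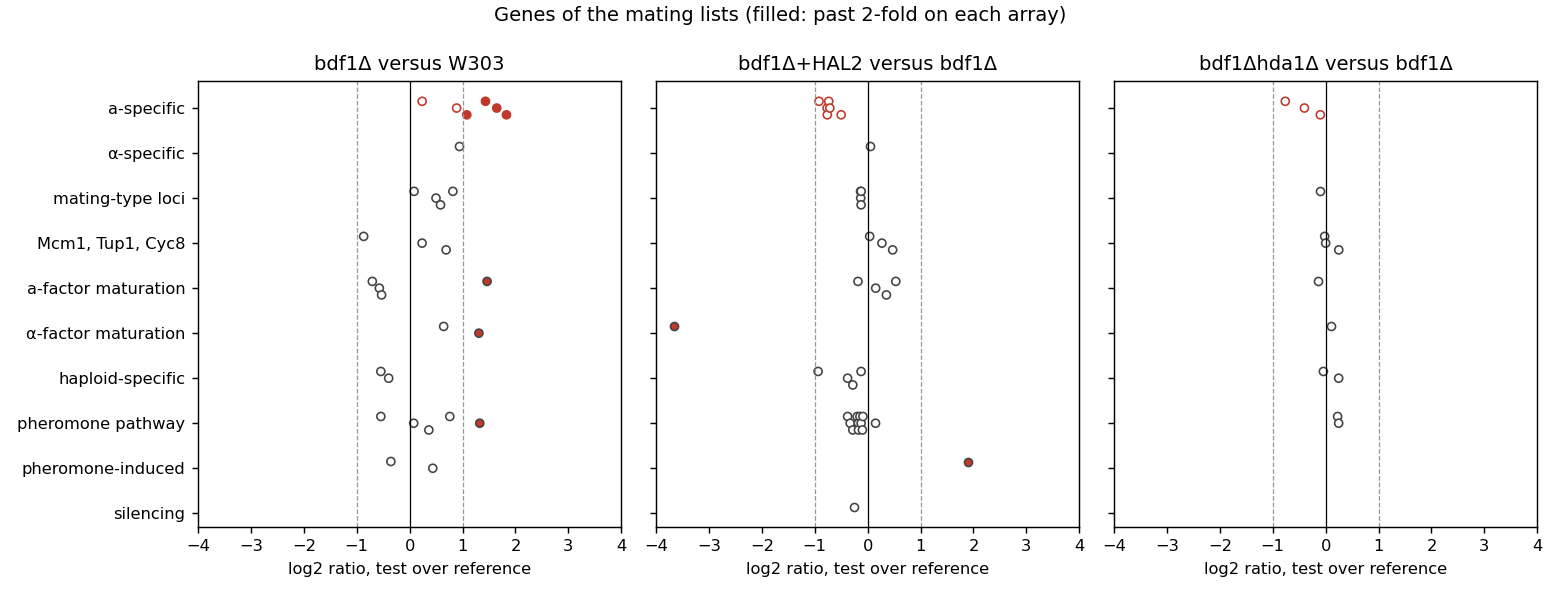
Log2 ratio (global loess) of every measured gene of the mating lists in the 3 comparisons; filled points passed 2-fold on each array and dashed lines mark 2-fold. Of these lists the a-specific genes hold 4 filled points in bdf1Δ versus W303, and the 2 filled points in bdf1Δ+HAL2 are KEX1 on the left and PRM1 on the right.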

How the data were processed

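Per the file headers, the deposited scanner output lists spot and local background intensity in red and green. The authors also deposited a table with 1 linear ratio for each probe, whose centring is not stated. That ratio ran as test over reference on all 5 arrays (Pearson r of 0.741 to 0.938 with the scanner ratios across genes) and served as an alternative. The image software is not given in the sources used here.

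Spot medians were background-corrected by normexp (offset 50) and normalized by global loess with weight 0 for control and unfound spots (limma 3.58.1, R 4.3.3). Signs were turned where the test strain was in Cy3. Later steps used Python 3.11.15, pandas 2.3.3, NumPy 2.4.6 and matplotlib 3.10.9. The steps were tested on simulated data without block effects, so that test does not cover the block pattern of the bdf1Δ versus W303 array. The number of arrays limits the precision. No a-specific spot was saturated. Alternatives covered normalization, background, spot filters, scaling, the authors' table and single arrays.

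Members and lists were chosen with earlier results of these data known. All 7 members are named. Of each other list, called genes are named (up to 4), or the 2 measured genes with the largest change, and the 5 genes nearest in profile. Names come from the R64 gene table; no coordinates or sequences are given, and cross-hybridisation, as between MFA1 and MFA2, was not examined.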

Additional observations from a re-analysis of the deposited data

How the results depend on the processing

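No paired analysis was possible because no result comes from a test and the 2 arrays of a pair are a technical dye swap. In bdf1Δ+HAL2 versus bdf1Δ the a-specific genes stayed below 0 under every setting that measured them, from −1.36 to −0.43 (BAR1 was not measured with both channels above background); their median was −1.11 with scaling between arrays and −0.81 with the authors' deposited ratio, centred or not. Members called lower there were 2 with scaling and 1 with the authors' ratio, centred or not; all genes called higher were 71 and lower 122 with scaling, and 32 to 36 genes were called higher from a single array. In bdf1Δhda1Δ the median of the 3 measured members was −0.45 by print-tip loess and −0.36 with the authors' ratio. With every spot the median over all 7 members was −0.31, while the 3 measured ones kept their values. STE6 ran from −0.39 with the centred authors' ratio to 0.02 without replicate 1. In bdf1Δ versus W303, without normalization the member median was −0.42, MFA1 −0.22, MFA2 −0.37 and BAR1 −0.46, with 0 members called higher and 1 lower and 15 genes higher and 2759 lower. With the authors' ratio the median was −0.58, MFA2 −1.04 and BAR1 −0.75, with 1 member higher and 2 lower and 31 genes higher and 2873 lower; after centring the median was 1.79, with 1055 genes higher and 1127 lower. Print-tip loess gave a median of 0.72, 2 members higher, 219 genes higher and 228 lower. Scaling gave 0.53, 0 members, 12 genes higher and 116 lower. Every spot gave 1564 genes higher, both channels above background 280 lower, and leaving out each gene's highest spot 373 genes and 2 members higher. Centring and spot omission were chosen after seeing the data, as was no normalization. The cause of these shifts was not tested. Spots not above background limit ASG7, BAR1 and the bdf1Δhda1Δ pair.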
